A study of Mus musculus with 10 samples.

Results

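The brush border peptidases examined here are 9 genes, Enpep, Anpep, Dpp4, Mme, Ace, Mep1a, Mep1b, Ggt1 and Tmprss15, taken by symbol from the 24062 genes counted in the jejunum of newborn mice. They belong together by what their proteins do. All 9 were among the 17632 genes tested, and 8 of the 9 had at least 5 counts in every library. The study compared KSR23 mice with WT mice at postnatal day 5, with 5 libraries per group, all C57BL/6 by their labels. In KSR23 mice (genotype KSR23+), an IL-23 cassette held silent by a floxed STOP is switched on by cre-recombinase under the K14 promoter, so that keratinocytes, and not the cells of the jejunum, were the cells chosen to make the cytokine. WT mice were littermate controls. RNA came from whole jejunum, so that in every value here fewer cells of a type and less RNA per cell cannot be told apart.

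The brush border is the carpet of microvilli on the surface of absorptive enterocytes, and its membrane carries peptidases whose active sites face the gut lumen. Pancreatic proteases first cut dietary protein into oligopeptides, and the brush border peptidases then trim these from either end until amino acids, dipeptides and tripeptides are left for uptake. Several of the same enzymes also cut peptide hormones, and 1 of them, enteropeptidase, starts the whole cascade by cutting pancreatic trypsinogen into trypsin.

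Library totals were 25477722 to 32030950 counts in WT and 31195111 to 60948534 in KSR23, and each library was amplified from a very small input of RNA. Il23a, which encodes the p19 subunit of IL-23, had 1 to 14 counts in WT and 8 to 34 in KSR23, and the groups overlapped. Il12b, which encodes the p40 subunit, had 0 to 5 counts in WT and 9 to 40 in KSR23 (0 to 0.147 and 0.354 to 1.13 counts per 1e6, CPM), without overlap, and Reg3b, which encodes an antimicrobial lectin, had 784 to 24473 counts in WT and 1415018 to 3976879 in KSR23. Replicates 4 and 5 of both groups stood apart from replicates 1 to 3. If the 5 libraries of a group were interchangeable, each would hold the highest or the lowest value of its group for 40% of genes, but over 9037 autosomal genes replicates 4 and 5 did so for only 8.42% to 18.2%, against 46.1% to 75.4% for replicates 1 to 3. The same was seen in the peptidases, since WT replicate 5 lay within the range of WT replicates 1 to 3 for all 9 genes, WT replicate 4 for 7, and KSR23 replicates 4 and 5 for 8 each. Whether replicates 4 and 5 are independent of the other libraries was not tested, and every SD, n and p-value over 5 libraries takes them as such. The results for the 9 genes, and the counts of calls in gene lists, are therefore also given for replicates 1 to 3 alone, where 3 libraries faced 3. Enterocyte markers were abundant in every library (summed level 94001 to 201311 CPM in WT and 60029 to 108716 CPM in KSR23), and the distal genes Fabp6, Slc10a2 and Fgf15 had at most 10, 42 and 306 counts in any library. At most 2.82% of the 75-base stretches in the transcripts of any peptidase gene (Ace) were also found in transcripts of another gene.

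The sequences in front of the start sites are shown for 3 of the peptidase genes that rose and for Anpep, the relative of Enpep whose test was not passed, so that the letters around the starts can be set side by side. They are RefSeq windows of build GRCm38.p6 that run from 250 bases before to 50 bases after an annotated start, written 5′ to 3′ on the strand of the gene. Of the 9 genes, 8 had at least 1 such window, 14 in all. Capitals mark matches, on either strand, to the TATA box TATAAA, to the GC box GGGCGG, to TTCNNNGAA as bound by STAT factors, to GTTAAT as bound by HNF1, to AGATAA as bound by GATA factors, to TTTATG as bound by CDX factors, and to CAAAGTCCA as bound by HNF4. These motifs were settled after matches to a longer set had been seen, so that a match is a description only. The Enpep window is chr3:129332700-129332999, minus strand, the Dpp4 window is chr2:62412182-62412481, minus strand, the Tmprss15 window is chr16:79091048-79091347, minus strand, and the Anpep window is chr7:79848161-79848460, minus strand.
Enpep: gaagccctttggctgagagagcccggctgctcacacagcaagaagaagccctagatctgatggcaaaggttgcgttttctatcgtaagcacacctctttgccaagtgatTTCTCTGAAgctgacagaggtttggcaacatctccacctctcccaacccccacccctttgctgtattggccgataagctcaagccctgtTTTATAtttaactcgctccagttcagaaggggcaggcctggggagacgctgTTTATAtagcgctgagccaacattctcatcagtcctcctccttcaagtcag
Dpp4: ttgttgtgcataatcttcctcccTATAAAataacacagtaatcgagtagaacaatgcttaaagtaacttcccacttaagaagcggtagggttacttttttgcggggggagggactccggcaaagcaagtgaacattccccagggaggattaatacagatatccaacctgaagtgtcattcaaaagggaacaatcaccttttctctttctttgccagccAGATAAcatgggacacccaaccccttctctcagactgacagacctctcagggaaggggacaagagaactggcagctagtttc
Tmprss15: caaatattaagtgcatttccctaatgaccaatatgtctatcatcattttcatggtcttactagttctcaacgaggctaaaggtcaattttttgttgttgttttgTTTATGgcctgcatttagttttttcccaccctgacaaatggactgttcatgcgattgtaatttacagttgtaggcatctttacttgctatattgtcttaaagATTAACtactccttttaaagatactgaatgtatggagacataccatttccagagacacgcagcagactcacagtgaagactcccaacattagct
Anpep: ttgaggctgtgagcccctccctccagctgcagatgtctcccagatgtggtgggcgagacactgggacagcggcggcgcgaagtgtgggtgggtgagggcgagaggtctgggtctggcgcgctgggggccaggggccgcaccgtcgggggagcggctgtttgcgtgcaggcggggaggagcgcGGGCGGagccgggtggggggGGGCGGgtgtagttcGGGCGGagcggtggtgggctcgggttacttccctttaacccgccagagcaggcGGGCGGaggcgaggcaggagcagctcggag

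The 4 windows were unlike one another in base composition. G and C made up 51.3% of the Enpep window, 45.3% of that of Dpp4, 36.3% of that of Tmprss15 and 72.3% of that of Anpep, against a median of 52.7% over 32851 mouse windows. The Anpep window held 4 matches to GGGCGG, a string that 35.7% of all windows hold. The Enpep window held TTCTCTGAA, a match to TTCNNNGAA, with its first base 141 bases before the start, and 8.3% of all windows hold such a match. It also held TTTATA, the reverse complement of the TATA box, 52 bases and 1 base before the start. Among the other members Mme had a match to TTCNNNGAA too. The Tmprss15 window held ATTAAC, the reverse complement of GTTAAT, 44 bases before its start (7.1% of all windows) and TTTATG 146 bases before it (11.9%). The Dpp4 window held AGATAA 32 bases before its start (11.2%) and TATAAA 227 bases before it (13.6%). No member's window held CAAAGTCCA, which 0.475% of all windows hold.

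Of the 9 peptidase genes, 5 were higher in KSR23 than in WT, 0 were lower and 4 did not pass the test (edgeR likelihood ratio test, adjusted p under 0.05 over all genes tested). The 5 that rose were Tmprss15, Ggt1, Enpep, Mep1b and Dpp4. Over all 17632 genes the same test called 9.74% higher and 8.76% lower. The median log2 fold change, KSR23 over WT, was 1.03 over the 9 genes and 0.03 over all genes tested. With edgeR's quasi-likelihood test, which allows for uncertainty in the spread of each gene, the same 5 genes were called, against 8.47% of all genes higher. With replicates 1 to 3 alone, 3 of the 9 were called (Enpep, Mep1b and Ggt1, against 2.01% of all genes called higher), and none were called by the quasi-likelihood test on those 6 libraries, which called 0.574% of all genes higher. At an unadjusted p under 0.05 that test had 5 members higher, against 7.02% of all genes. In 4 of the 9 (Enpep, Dpp4, Mep1b and Ggt1) the lowest KSR23 library was above the highest WT library, which held for 7.41% of all genes.

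**Figure D1:**
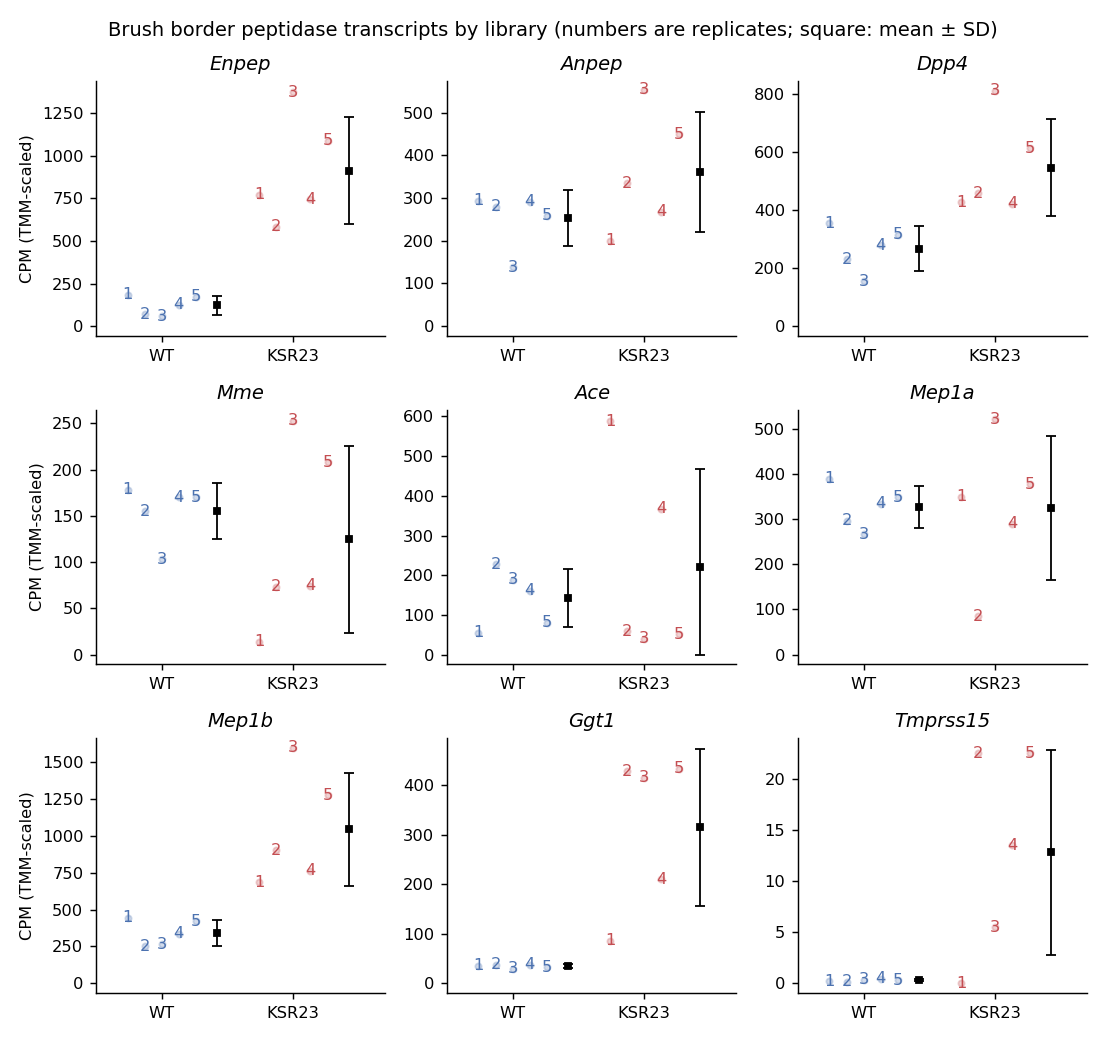
Level of each of the 9 peptidase genes in each library, in TMM-scaled CPM on a linear axis that includes 0, with a panel per gene. Numerals are replicate numbers, blue for WT and red for KSR23, and squares with bars are the mean and SD of 5 libraries, with the lower bar of Ace stopped at 0. The groups do not overlap for Enpep, Dpp4, Mep1b and Ggt1, Ace is high in KSR23 replicates 1 and 4, and Tmprss15 is at 0 in KSR23 replicate 1.

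The aminopeptidases, which remove amino acids from the front of a peptide, were Enpep and Anpep. Enpep encodes aminopeptidase A, which prefers acidic residues and turns angiotensin II into angiotensin III. It lies at chr3:129269175-129332720 (mm10) and was counted over 4706 bases of exon. Its level was 184, 71.1, 59.3, 125 and 173 CPM in WT replicates 1 to 5 and 771, 583, 1371, 745 and 1088 CPM in KSR23 replicates 1 to 5. Every KSR23 library was above every WT library, and within KSR23 replicate 3 was the highest. The mean rose from 122 ± 56.9 to 912 ± 315 CPM (SD, n = 5 each), a log2 fold change of 2.90 ± 0.37 (SE), or 7.44-fold, with an adjusted p of 4.37e-11 (likelihood ratio) and 0.000405 (quasi-likelihood) by edgeR. Among replicates 1 to 3 Enpep stood 3.15 higher on the log2 scale, and edgeR gave adjusted p-values of 0.000186 (likelihood ratio) and 0.0646 (quasi-likelihood).

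Anpep encodes aminopeptidase N, the broad neutral aminopeptidase that is often used as a marker of the brush border membrane, and lies at chr7:79821803-79861059. Its level was 294, 280, 138, 291 and 259 CPM in WT and 200, 334, 553, 268 and 449 CPM in KSR23. The groups overlapped, since KSR23 replicates 1 and 4 lay among the WT libraries. The log2 fold change was 0.51 ± 0.33 (SE), with a 95% interval from -0.14 to 1.17 and an adjusted p of 0.304 by edgeR's likelihood ratio test. Among replicates 1 to 3 it was 0.65 (adjusted p = 0.724 by the same test).

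The ratio of Enpep to Anpep within a library needs no scaling between libraries. On the log2 scale it was -0.67, -1.98, -1.22, -1.22 and -0.59 in WT and 1.95, 0.80, 1.31, 1.48 and 1.28 in KSR23. Anpep had the more counts in every WT library and Enpep in every KSR23 library. The difference in means was 2.50, from -1.14 ± 0.56 to 1.36 ± 0.41 (SD, n = 5 each), with an exact permutation p of 0.00794, which is the smallest that 252 regroupings can give, and 0.0119 after Benjamini-Hochberg adjustment over the 3 ratios tested (two-sided). In replicates 1 to 3 the difference was 2.64, where 3 against 3 libraries cannot reach a p under 0.05.

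Dpp4, Mme and Ace encode enzymes that release dipeptides or cut within the chain. Dpp4 encodes dipeptidyl peptidase 4, which removes dipeptides that end in proline or alanine and inactivates the incretin hormones GLP-1 and GIP. It lies at chr2:62330073-62412231 and shares exonic bases with Gm13561 on the other strand, and the strand setting of the counting was not stated. Its level was 354, 230, 154, 279 and 315 CPM in WT and 427, 457, 811, 421 and 613 CPM in KSR23. The groups did not overlap, but the highest WT library (354 CPM) and the lowest KSR23 library (421 CPM) lay close together. The log2 fold change was 1.03 ± 0.30 (SE), or 2.05-fold, with an adjusted p of 0.00746 (likelihood ratio) and 0.024 (quasi-likelihood) by edgeR. Dpp4 was not called in replicates 1 to 3 alone (log2 fold change 1.23, adjusted p = 0.251), with the summed level of Y-linked genes as a covariate (0.81, adjusted p = 0.179), or when libraries were scaled to microvillus structure genes (0.52, adjusted p = 0.262), all by edgeR's likelihood ratio test.

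Mme encodes neprilysin, a neutral endopeptidase that cuts within peptides, and lies at chr3:63241537-63386030. Its level was 178, 155, 103, 170 and 170 CPM in WT and 13.8, 73.6, 253, 74.4 and 208 CPM in KSR23. The highest KSR23 library was 18.4 times the lowest, against 1.73 times in WT, and KSR23 libraries lay on both sides of the WT range. The log2 fold change was -0.32 ± 0.56 (SE, adjusted p = 0.762 by edgeR's likelihood ratio test) over all libraries, -0.32 in replicates 1 to 3, 0.02 without KSR23 replicate 1 and -1.84 with the Y-linked covariate, and Mme was called in none of these.

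Ace encodes angiotensin-converting enzyme, which removes dipeptides from the end of a peptide and makes angiotensin II. It lies at chr11:105967945-105989964, and shares exonic bases with Gm11651 on the other strand. Its level was 55, 228, 189, 161 and 80.2 CPM in WT and 588, 58.5, 39.8, 368 and 51.3 CPM in KSR23. Ace was high in KSR23 replicates 1 and 4 and low in the other 3, and in WT it was low in replicates 1 and 5. The log2 fold change was 0.63 ± 0.70 (SE, adjusted p = 0.597 by edgeR's likelihood ratio test), 0.57 in replicates 1 to 3 (adjusted p = 0.888) and -0.07 without KSR23 replicate 1.

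The levels of Ace within each group ran beside those of Fgf15, a hormone gene of the distal small intestine, and of Alpi, which encodes intestinal alkaline phosphatase, 2 genes singled out after their values were seen. Fgf15 was at 1.27, 7.67, 6.38, 5.47 and 2.7 CPM in WT and at 4.35, 0.0322, 0, 2.28 and 0 CPM in KSR23. Alpi was at 118, 2702, 3073, 1609 and 685 CPM in WT and at 3386, 1190, 97.8, 2311 and 550 CPM in KSR23. The order of the 5 KSR23 libraries was the same for Ace and Alpi, and in WT all 3 genes were lowest in replicate 1, next lowest in replicate 5 and highest in replicates 2 and 3. The distal genes Slc10a2 and Fabp6 did not run beside Ace. Both were highest in WT replicate 1 (0.279 and 0.0929 CPM), and Slc10a2 was lowest of the KSR23 libraries in replicate 1 (0.0711 CPM). The proximal gene Pdx1 had the same order as Ace in WT but not in KSR23, where replicate 1 was at 0.299 CPM. Neither Fgf15 nor Alpi was called between the groups, and the part of any of these genes in the spread of Ace was not tested.

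Mep1a and Mep1b encode the α and β subunits of meprin, a metalloendopeptidase of the brush border. The β subunit is anchored in the membrane, and the α subunit stays at the cell surface only when bound to it. Mep1b was at 445, 252, 265, 334 and 421 CPM in WT and at 685, 903, 1598, 762 and 1276 CPM in KSR23. Every KSR23 library was above every WT library. The mean rose from 343 ± 87.9 to 1045 ± 384 CPM (SD, n = 5 each), a log2 fold change of 1.61 ± 0.31 (SE), or 3.04-fold, with an adjusted p of 1.31e-05 (likelihood ratio) and 0.00303 (quasi-likelihood) by edgeR. Among replicates 1 to 3 it was 1.76, with edgeR's adjusted p at 0.0399 (likelihood ratio) and 0.183 (quasi-likelihood).

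Mep1a, at chr17:43474324-43502812, did not follow. Its level was 389, 297, 267, 334 and 349 CPM in WT and 350, 85.1, 521, 290 and 377 CPM in KSR23, with KSR23 replicate 2 far below every other library. The log2 fold change was -0.01 ± 0.38 (SE), with a 95% interval from -0.76 to 0.74 (adjusted p = 0.989 by edgeR's likelihood ratio test), 0.04 in replicates 1 to 3 and 0.28 without KSR23 replicate 2.

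The balance of the subunit transcripts differed between the groups. The log2 ratio of Mep1a to Mep1b counts was -0.19, 0.24, 0.01, 0.00 and -0.27 in WT, close to equal counts, and -0.97, -3.41, -1.62, -1.39 and -1.76 in KSR23. The difference in means was -1.79, from -0.04 ± 0.20 to -1.83 ± 0.93 (SD, n = 5 each), with an exact permutation p of 0.00794, the smallest possible here, and 0.0119 after adjustment over the 3 ratios (two-sided). The ratio was lower in 5 of 5 KSR23 libraries than in any WT library, and the difference was -1.39 without KSR23 replicate 2 and -2.02 in replicates 1 to 3.

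**Figure D2:**
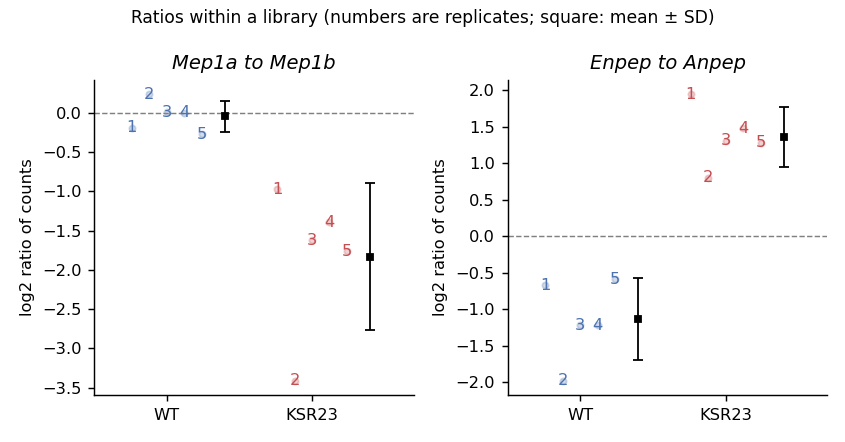
Log2 ratio of the counts of 2 genes within each library, with a panel for each of 2 ratios and the dashed line at equal counts. Numerals are replicate numbers and squares with bars are the mean and SD of 5 libraries. WT and KSR23 separate for Mep1a to Mep1b (-0.04 against -1.83) and for Enpep to Anpep (-1.14 against 1.36).

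Ggt1 encodes γ-glutamyltransferase 1, which takes the glutamyl group from glutathione outside the cell and so recovers its amino acids. It lies at chr10:75561604-75586200 and had 4 RefSeq windows, the most of any member. Its level was 35.4, 37.6, 28.7, 37.6 and 32 CPM in WT and 85.9, 429, 416, 210 and 434 CPM in KSR23. The WT libraries were within 1.31-fold of each other, and KSR23 replicate 1 was the lowest of the KSR23 libraries but above all of WT. The mean rose from 34.2 ± 3.87 to 315 ± 159 CPM (SD, n = 5 each), a log2 fold change of 3.20 ± 0.39 (SE), or 9.2-fold, with an adjusted p of 6.26e-12 (likelihood ratio) and 0.000314 (quasi-likelihood) by edgeR. Among replicates 1 to 3 it was 3.23, with edgeR's adjusted p at 0.000319 (likelihood ratio) and 0.0681 (quasi-likelihood), and with the Y-linked covariate it was 2.16 and still called.

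Tmprss15 encodes enteropeptidase, the serine protease of the proximal gut that activates trypsinogen, and lies at chr16:78953008-79091097. It had 6, 4, 9, 15 and 8 counts in WT and 0, 697, 138, 764 and 796 counts in KSR23, or 0.186, 0.141, 0.33, 0.432 and 0.3 CPM against 0, 22.5, 5.49, 13.5 and 22.5 CPM. WT libraries held only a few counts each, 4 of the 5 KSR23 libraries held over 100, and KSR23 replicate 1, the deepest library, held none, which allows a level of up to 0.0427 CPM in it (3 counts, counting error only). The log2 fold change was 5.51 ± 1.0 (SE), or 45.4-fold, with an adjusted p of 8.04e-05 (likelihood ratio) and 0.009 (quasi-likelihood) by edgeR, and 5.87 without KSR23 replicate 1. Among replicates 1 to 3 it was 5.43, and the call was lost (adjusted p = 0.0586 by edgeR's likelihood ratio test), and with the Y-linked covariate it was 4.50 and called.

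Among 8 genes that mark position along the gut, KSR23 replicate 1 was also clearly apart from the other libraries in Onecut2. This transcription factor gene of the proximal small intestine was at 2.2 CPM there and at 16.3 to 39.2 CPM in the other libraries. Slc40a1, the iron exporter of the duodenum, was highest there at 2066 CPM, but KSR23 replicate 4 was near it at 1750 CPM, and the lowest library was at 831 CPM. For Cybrd1 (8.7 CPM, among KSR23 libraries at 7.67 to 9.65 CPM), Gata4 (26 CPM, against up to 25.6 CPM in WT) and Pdx1, which ranged from 0 to 144 counts over the libraries, KSR23 replicate 1 was not apart. Of the distal genes, Fgf15 was higher there (4.35 CPM) than in the other KSR23 libraries (0 to 2.28 CPM) but within the WT range (1.27 to 7.67 CPM), and Slc10a2, at 5 counts, and Fabp6, at 8, were not apart from all other libraries. The part of position along the gut in the level of Tmprss15 was not tested. The lists of regional genes held 1 of 5 proximal genes lower (Cybrd1, the duodenal iron reductase, log2 fold change -1.71) and 1 of 3 distal genes higher (Slc10a2, at no more than 42 counts in any library, and not called by edgeR's quasi-likelihood test, adjusted p = 0.0923). In replicates 1 to 3 Cybrd1 was called and Slc10a2 was not.

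**Figure D3:**
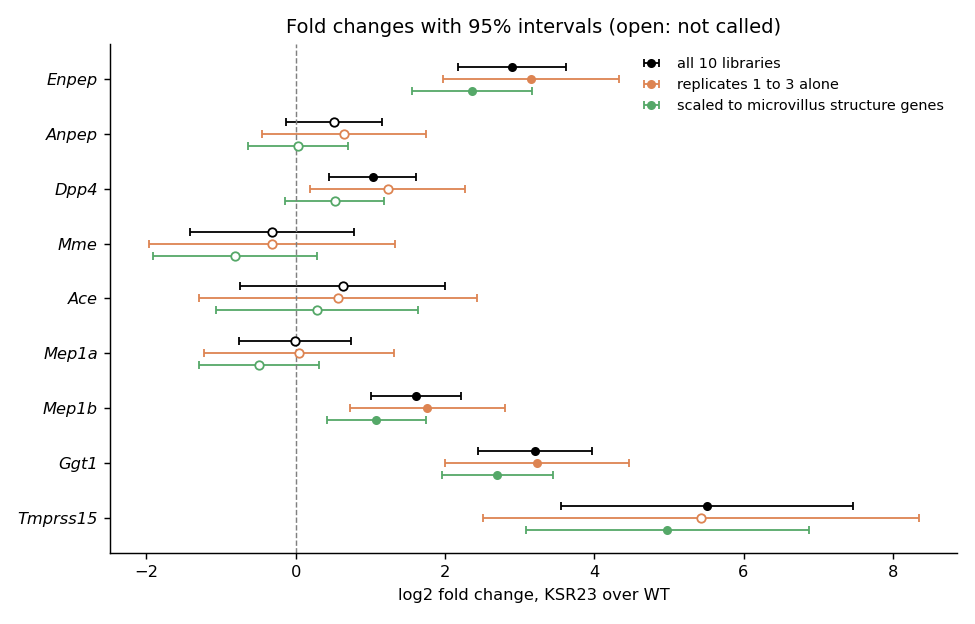
Log2 fold change, KSR23 over WT, of the 9 peptidase genes with 95% intervals, from all 10 libraries (black), from replicates 1 to 3 alone (orange) and with libraries scaled to microvillus structure genes (green). Filled points were called at an adjusted p under 0.05 and open points were not. Enpep, Mep1b and Ggt1 are called under all 3, Dpp4 only in black, Tmprss15 in black and green, and Anpep, Mme, Ace and Mep1a under none.

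To compare genes with each other, CPM was divided by the exon length of each gene. In WT the order of mean CPM per kb was Mep1b, Mep1a, Anpep, Dpp4, Ace, Enpep, Mme, Ggt1 and Tmprss15. In KSR23 it was Mep1b, Enpep, Mep1a, Ggt1, Anpep, Dpp4, Ace, Mme and Tmprss15, so that Enpep moved from place 6 to place 2 and Ggt1 from 8 to 4. Neighbours in these orders mostly had overlapping ranges, and in WT only Mep1a over Anpep and Ggt1 over Tmprss15 were free of overlap. Ggt1 was above Anpep in 2 of the 5 KSR23 libraries and below Mep1a in 3. The order of Mep1b, Enpep and Mep1a held within each of the 5 KSR23 libraries.

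Summed over the 9 genes, WT libraries reached 405 ± 71.7 CPM per kb and KSR23 libraries 1007 ± 309 (SD, n = 5 each). Enpep made up 6.16% ± 1.99 of that sum in WT and 19.1% ± 2.05 in KSR23, Ggt1 made up 2.52% ± 0.396 and 9.14% ± 4.61, and Mep1a made up 23.5% ± 1.21 and 9.2% ± 3.69. Mep1b, the largest part in both groups, made up 32% ± 3.99 and 39% ± 4.1. Dpp4 kept a nearly level share, 10.2% ± 1.35 and 8.59% ± 0.389. The shares of a sum are tied to each other, and they were not tested.

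**Figure D4:**
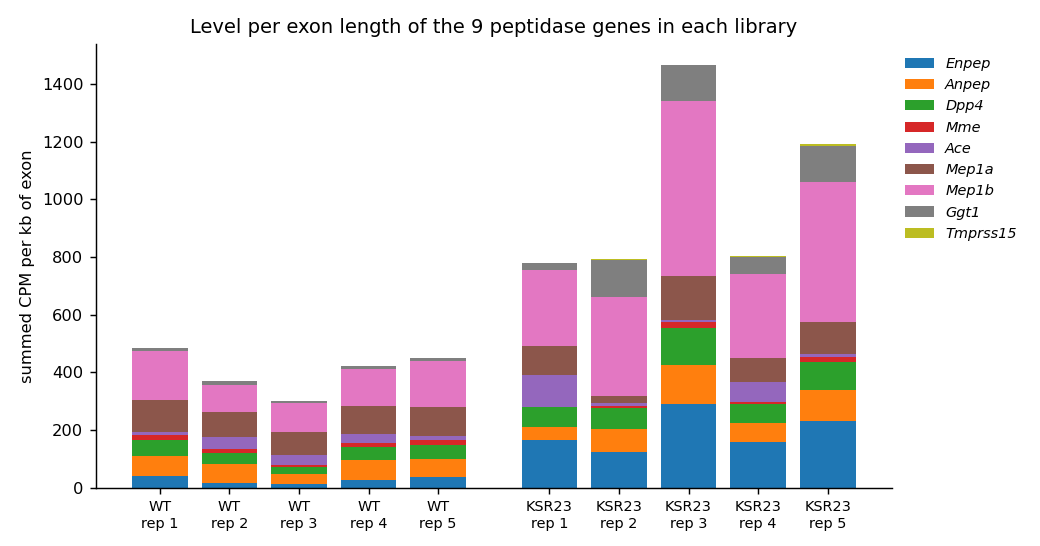
Summed level of the 9 peptidase genes in each library, in CPM per kb of exon, stacked by gene on an axis that starts at 0. The WT bars lie between 302 and 485 and the KSR23 bars between 779 and 1466, and the parts of Mep1b (pink), Enpep (blue) and Ggt1 (grey) are larger in KSR23.

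Several peptidases had their highest or lowest level in the same libraries, as many other genes did. WT replicate 1 was the highest WT library for 6 of the 9 genes (Enpep, Anpep, Dpp4, Mme, Mep1a and Mep1b) and WT replicate 3 the lowest for 6 (Enpep, Anpep, Dpp4, Mme, Mep1a and Ggt1). KSR23 replicate 3 was the highest KSR23 library for the same 6 genes as WT replicate 1, and KSR23 replicate 1 the lowest for 5 (Anpep, Mme, Mep1b, Ggt1 and Tmprss15). Ace ran the other way, lowest in WT replicate 1 and in KSR23 replicate 3 and highest in KSR23 replicate 1. WT replicates 1 and 3 and KSR23 replicates 1 and 3 held the highest or lowest value of their group for 7, 6, 6 and 7 of the 9 genes. Over 9037 autosomal genes they did so for 67.5%, 54.5%, 57.1% and 75.4%, so that these counts are not particular to the peptidases.

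Genes with a similar pattern over the 10 libraries were ranked by Pearson's r of log2 CPM, as a description, since the groups alone can make such values high. Most like Enpep were Cyp4a12a (r = 0.995), Reg3g (0.994), Exph5 (0.993), Reg3b (0.992) and Itih4 (0.992), among 12889 genes. Most like Tmprss15 were Rcc2 (r = 0.968), Cfhr2 (0.966), Papss2 (0.959), Pla2g2d (0.955) and Akr1b8 (0.950). Of these 5, all but Rcc2 had their lowest KSR23 count in KSR23 replicate 1, for example Papss2, with 2778 counts there and up to 32757 in the other KSR23 libraries.

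The rest of the machinery of protein digestion was followed in lists of genes. Of the other peptidases of the brush border and apical membrane, 2 of 6 tested rose and 1 fell, with a median log2 fold change of 0.39. Tmprss2, a transmembrane serine protease, rose by 1.5 on the log2 scale and Xpnpep2, which removes a residue in front of proline, by 1.43, while Cpm, the membrane carboxypeptidase M, was at -1.31. Folh1, the folate hydrolase, had 0 counts in every library and was not tested. In replicates 1 to 3 none of the 6 was called by edgeR, with adjusted p-values of 0.0852 (Tmprss2), 0.111 (Xpnpep2) and 0.213 (Cpm). With the Y-linked covariate Tmprss2 (0.94, adjusted p = 0.086 by edgeR) and Xpnpep2 (0.89, adjusted p = 0.102) were not called either. Of the cytosolic peptidases, which finish dipeptides and tripeptides after uptake, 4 of 8 rose and 0 fell (median 0.84). These were the carnosine dipeptidase Cndp2 (1.60, adjusted p = 1.59e-06 by edgeR), the tripeptidyl peptidase Tpp2 (1.26), the leucine aminopeptidase Lap3 (0.89) and Xpnpep1 (0.79), and Xpnpep1 was not called by the quasi-likelihood test (adjusted p = 0.0526). In replicates 1 to 3 only Cndp2 was called (adjusted p = 0.0296 by edgeR), and with scaling to microvillus structure genes 2 of the 8 were higher and 1 lower. Naaladl1, a dipeptidase-like peptidase of the ileal brush border that was not called, was at 473 and 290 CPM in KSR23 replicates 1 and 4, the libraries in which Ace was high, and at 18.2 to 109 CPM in the other 3, but in WT it ran the other way from Ace, highest in replicate 1 (181 CPM) and lowest in replicate 3 (83.3 CPM).

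The microvillus itself was followed through 12 structural genes, of which 1 was higher and 0 lower (median log2 fold change 0.38). The gene that rose was Myo1a (1.97, adjusted p = 7.24e-09 by edgeR, and 0.00565 in replicates 1 to 3), which encodes the myosin that ties the actin core to the membrane. Their summed level was 4961 to 7048 CPM in WT and 7542 to 8982 CPM in KSR23, without overlap. Scaled to these genes, 4 of the 9 peptidase genes were still higher (Enpep 2.36, Mep1b 1.08, Ggt1 2.70 and Tmprss15 4.98), against 4.28% of all genes. This scaling moved the median of all genes by -0.47 and changed the calls over all genes from 1717 higher and 1545 lower to 755 higher and 3511 lower.

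Disaccharidases share the brush border membrane. Of 4 tested, Mgam (maltase-glucoamylase, 2.69) and Sis (sucrase-isomaltase, 1.79, with 52 to 86 counts in WT and 136 to 464 in KSR23, but overlapping groups in CPM, and not called with the Y-linked covariate, 1.06, adjusted p = 0.131 by edgeR) rose, and Lct, the lactase of suckling animals, was lower at -0.81, a call not made by the quasi-likelihood test (adjusted p = 0.0627 by edgeR). Only Mgam was called in replicates 1 to 3. Of 10 peptide and amino acid transporters, 4 rose and 0 fell (median 0.55), namely Slc1a1 (1.87), Slc36a1 (1.53), Slc3a1 (1.46) and Slc6a20a (0.78). Only Slc1a1 was called in replicates 1 to 3 (adjusted p = 0.0209 by edgeR). Slc15a1, the dipeptide and tripeptide carrier PEPT1, was at 0.58 and was not called (adjusted p = 0.257 by edgeR).

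Transcripts of the secreted proteases that act before the brush border moved the other way from Tmprss15. All 7 listed trypsinogens, chymotrypsinogens, elastases and carboxypeptidases were lower in KSR23, 6 of them also by the quasi-likelihood test and 4 in replicates 1 to 3. Most of these genes are among those the study named as lower in these same libraries, so that their count is not independent evidence of the direction. Ctrb1, chymotrypsinogen B, had 1996 to 3053 counts in WT and 2 to 27 in KSR23, and Prss2, a trypsinogen and thus a substrate of enteropeptidase, had 8 to 363 and 0 to 1. Their summed level was 74.2 to 121 CPM in WT and 0.299 to 0.79 in KSR23, and the tissue that made these transcripts was not tested.

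**Figure D5:**
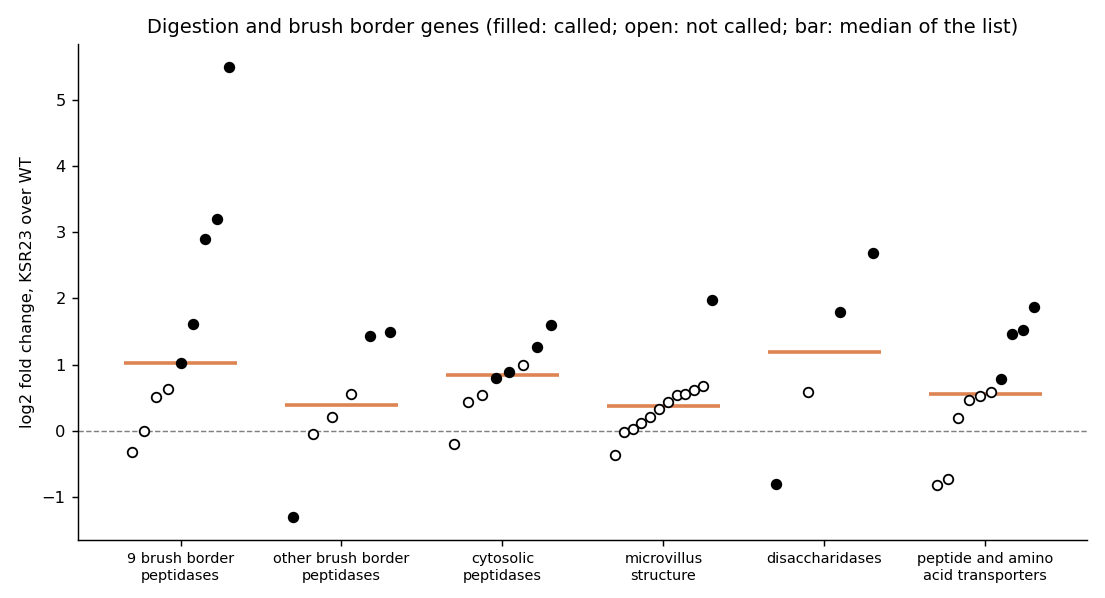
Log2 fold change, KSR23 over WT, of each tested gene in 6 lists of brush border and digestion genes, with filled points for called genes, open points for genes not called, and an orange bar at the median of the list. The 9 peptidase genes (median 1.03) run from -0.32 (Mme) to 5.51 (Tmprss15), and of the 12 microvillus structure genes (median 0.38) only Myo1a is filled.

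Markers of the cells that a piece of jejunum holds were set beside these values. Of 7 enterocyte markers 1 was higher (Krt20, a keratin of mature villus cells, 2.22) and 2 were lower (Fabp1, -1.01, and Fabp2, -1.19; with the Y-linked covariate 1.30, -1.82 and -1.80, all called), and the summed level was below every WT library in 4 of the 5 KSR23 libraries, with replicate 3 the exception (median 114707 CPM in WT and 69878 CPM in KSR23). Apoa4 (mean 81609 CPM in WT and 49792 CPM in KSR23) and Apoa1 (21316 and 15116 CPM) made up most of the enterocyte sum. Neither was called (adjusted p = 0.161 and 0.567 by edgeR's likelihood ratio test), and Epcam and Alpi were not called either. Endothelial cells also carry Ace, and of their 6 markers 2 were lower (Cdh5, -0.97, and Emcn, -1.20), with summed levels of 115 to 161 CPM in WT and 117 to 151 in KSR23. Of 6 fibroblast markers 1 was lower (Dcn, -1.10), with sums of 1248 to 1893 and 1234 to 1756 CPM. None of 5 pericyte markers was called by edgeR (also 0 by the quasi-likelihood test), with sums of 89.6 to 122 and 98.8 to 123 CPM. Of the 6 lymphocyte markers 1 was higher and 1 lower (20.7 to 32.3 and 13 to 38.7 CPM), and of the 6 myeloid markers 1 was higher (610 to 729 and 472 to 654 CPM). In replicates 1 to 3 only Krt20 was called among all these markers by edgeR's likelihood ratio test. The sums of every cell type, enterocytes included, overlapped between the groups, and the part of a change in cell make-up in the level of any peptidase gene was not tested.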

How the data were processed

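RNA of jejunum from WT and KSR23 mice at postnatal day 5 (5 libraries each) was measured by single-end 75-base sequencing of oligo-dT primed, PCR-amplified cDNA. Each deposited file holds raw read counts per gene symbol, made by the authors by mapping to mm10 with TopHat2 2.1.0 and counting with HTSeq 0.6.1p1 in strict intersection with the transcript models. The strand setting was not stated. Ambiguous reads and reads outside genes came to 7.87% to 11.9% and were left out. There were no molecular identifiers, so that limits for a count of 0 cover counting error only.

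The likelihood ratio test of edgeR was taken from the study, but in a later version (4.0.16, R 4.3.3) and over all gene symbols of the files, where the study names protein-coding genes. The study names no scaling, and TMM factors were used. Genes were kept with at least 5 counts in at least 1 library (the study's wording can also mean every library, an alternative here). KSR23 was compared with WT, with Benjamini-Hochberg adjustment over all genes. CPM values use TMM-scaled totals, exon lengths come from GENCODE M21, and similar genes used log2 CPM with a prior count of 2. Alternatives were edgeR's quasi-likelihood test, DESeq2 1.42.0, other scalings and filters, replicates 1 to 3 alone, each library left out, a replicate block and a Y-linked covariate. Ratios (prior count 0.5) were compared by exact permutation (scipy 1.17.1) with adjustment over 3 ratios, of which 1 is not reported here. The fits and tests were tested on simulated data. The labels do not say that libraries came from separate animals, although the study calls them biological replicates, so that p-values measure the spread between these libraries.

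Named genes were the 9 members, genes of lists in order of their fold change or where they bear on a member, and the 5 genes most like Enpep and Tmprss15. The members and lists were chosen with earlier results of these data known.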

Additional observations from a re-analysis of the deposited data

Results flagged for a closer look

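In 36 sets of 5 values (18 genes or ratios in each group), a library was looked for whose distance to its nearest neighbour took up more than 0.71 of the whole range (Dixon's limit for 5 values). Chance alone passes that limit in about 1 of 20 sets, or 1.8 of 36 if the sets were independent, and 5 were found. The sets share libraries, and 4 of the 5 were in WT replicate 3, so that the difference from 1.8 tests nothing. In WT replicate 3, 4 peptidase genes were far below the other WT libraries on the log2 CPM scale, Anpep at 7.11 (next lowest 8.02), Mme at 6.68 (next 7.28), Xpnpep2 at 4.44 (next 4.95) and Tmprss2 at 4.99 (next 5.57). In KSR23 replicate 1, Tmprss15 was at -4.20, against 2.47 in the next lowest KSR23 library, but it had 0 counts there, so that its value was set by the prior count.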

How the results depend on the processing

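Over 21 alternatives of the fit, the 5 called peptidase genes gave 104 values, all in the same direction, and 94 of them were called. The 4 other peptidase genes gave 84 values, none of them called. With edgeR's likelihood ratio test on replicates 1 to 3 alone, the calls over all genes went from 3262 to 579 and those among the 9 members from 5 to 3. The quasi-likelihood test on those libraries called 140 genes and 0 members. Leaving out 1 library at a time gave 2370 to 3802 calls over all genes, always 5 members higher and 0 lower. Tmprss15 has no value with at least 5 counts asked of every library, where 4 members were called.

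Among values that were not called, Mep1a turned to 0.04 in replicates 1 to 3 by both tests (-0.25 to 0.28 with 1 library left out). Mme ran from -0.75 to 0.02 and Ace from -0.07 to 0.92 with 1 library left out. The cause of these changes was not tested. The differences of -2.02 (Mep1a to Mep1b) and 2.64 (Enpep to Anpep) in replicates 1 to 3 came from designs too small to pass, and with 1 library left out they ran from -2.0 to -1.39 and from 2.29 to 2.64.

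Same-numbered libraries of the groups did not deviate together (r of -0.55, 0.25, -0.46, 0.11 and 0.22), so that the numbers were not taken to pair them. With the number as a replicate block, 2202 genes and 4 members were called (Dpp4 not, adjusted p = 0.061 by edgeR), Tmprss15 was at 4.72 and Ace turned to -0.21. Paired by number, the ratio differences were -1.79 and 2.50, where 5 pairs cannot reach a p under 0.05.

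Among the genes named outside the family, Xpnpep1, Lct, Slc6a20a and Fabp1 were each not called under at least 11 alternatives. Counts were ample for 8 of the 9 members. Tmprss15 had 4 to 15 counts in the WT libraries and 0 in KSR23 replicate 1, the deepest library. With the Y-linked covariate Tmprss2, Xpnpep2, Lap3, Xpnpep1, Sis, Lct, Slc6a20a and Dcn were not called.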
